A study of Mus musculus with 6 samples.

Results

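The CHD genes encode chromodomain helicase DNA-binding proteins, ATP-driven enzymes that slide, space or evict nucleosomes. The 9 members Chd1 to Chd9 were taken by name from the deposited table, and all 9 were among its 11866 listed genes and among the 10770 genes tested. The family was selected on the log2 FPKM of its genes in knockdown against control cells, because Chd5 was higher in the knockdown cells and low in the controls. The values of the members in that contrast are therefore given as a description, without p-values, and support nothing by themselves.

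RNA from HCC3-4 cells, a liver tumour line from mice that carry a MYC transgene, was captured by its poly(A) tail and sequenced in 6 libraries. In 3 libraries (KD 1 to 3) the cells stably carried a short hairpin RNA against Sf3b3, and in 3 (PLKO 1 to 3) they carried the pLKO.1-TRC control vector. Sf3b3 belongs to the SF3b complex, with which the U2 spliceosome particle holds the branch point of introns. The study asks how SF3B3 acts on FXR splicing in tumours driven by MYC. All cells share the MYC transgenic origin, and the labels name 1 line, 1 hairpin target, no second hairpin and no separate cultures, so the SD and the p-values describe the spread between these libraries.

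CHD proteins fall into 3 subfamilies. Chd1 and Chd2 read methylated lysine 4 of histone H3 or act in transcribed genes. Chd3, Chd4 and Chd5 are alternative ATPases of NuRD, a complex that joins nucleosome remodelling to histone deacetylation. Chd6, Chd7, Chd8 and Chd9 are large remodellers, many of them bound at enhancers and promoters. Chd5 is known mainly from brain and from maturing male germ cells, and it acts as a tumour suppressor in mice through the Cdkn2a locus and p53.

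Levels are given in FPKM, fragments per kilobase of transcript scaled to a library size, which are powers of 2 of the deposited log2 values. Differences are KD minus PLKO on the log2 scale with the standard error (SE) of a limma fit to all tested genes. Whole read counts were recovered from the deposited values, and between 15140441 and 17566101 recovered reads fell on listed genes in each library. Sf3b3, the gene targeted, had 10.3, 9.56 and 13.9 FPKM in KD 1, 2 and 3 and 22.6, 28.7 and 29.2 FPKM in PLKO 1, 2 and 3. With a difference of -1.26 (SE 0.23), Sf3b3 fell in KD cells (limma adjusted p = 0.037), least so in KD 3. Without KD 1, KD 2, PLKO 1 or PLKO 2 the limma adjusted p was 0.125 to 0.189. KD 3 and PLKO 3 stood apart from the other 4 libraries: their deviations from the group means correlated at 0.50 over genes. Each correlated with the libraries numbered 1 and 2 of the other group at -0.28 to -0.43. Deviations cancel out within a group, so these negative values follow in part from the 0.50 and are not separate evidence. What the library numbers mean is not said in the labels. Of 14 hepatocyte markers only Krt8, Krt18 and Afp were listed, with summed levels of 52.6 to 86.9 FPKM in KD and 59.7 to 86.7 FPKM in PLKO. Krt8 made up most of that sum, and its groups overlapped. Krt18 averaged 9.11 FPKM in KD and 5.95 FPKM in PLKO, and Afp 1.40 and 0.389 FPKM. For both, every KD library lay above every PLKO library, where 13.4% of all tested genes did. Krt18 was not called (limma adjusted p = 0.10), and Afp was too low to be tested. Defining markers such as Alb, Ttr and Hnf4a were not among the listed genes. Of 9 fibroblast and stellate cell markers 6 were listed, and their sum was 53.1 to 76.5 FPKM in KD and 103 to 158 FPKM in PLKO. Most of it was Col3a1 (mean 19.8 FPKM in KD and 47.0 FPKM in PLKO) and Pdgfrb (32.5 and 63.0 FPKM). For these, Col1a1 and Col1a2 every KD library lay below every PLKO library, where 18.8% of all tested genes did. For Pdgfra (11.9 and 9.99 FPKM) and Des the groups overlapped, so the listed markers did not all move together. In bulk RNA, fewer cells of a type and less RNA per cell cannot be told apart.

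Across the family, Chd5, Chd7 and Chd1 were higher in KD cells, Chd9 and Chd2 were lower on average, and Chd3, Chd4, Chd6 and Chd8 differed by less than 0.3 on the log2 scale. Of the 9 members 7 had a mean log2 difference above 0 and 2 below 0, with a median of 0.23, against a median of -0.04 over all tested genes. At a limma adjusted p under 0.05, 1 member (Chd5) was called, and as higher, where 2.92% of all tested genes were called and 1.12% as higher. Without KD 1, KD 2, PLKO 1 or PLKO 2 no gene of the table was called. With the replicate number as a block 2 members (Chd5 and Chd7) were called, both higher, where 19.3% of all tested genes were called and 8.19% as higher. The KD and PLKO libraries did not overlap for 5 members, where 32.1% of all tested genes did not overlap. Chd5, Chd7, Chd1 and Chd3 had every KD library above every PLKO library, where 13.4% of all tested genes did, and Chd9 had every KD library below, where 18.8% of all tested genes did. Nothing is read from these counts, because the same contrast chose the family. Without both libraries numbered 3, the differences were 3.15 for Chd5, 1.43 for Chd7, 0.85 for Chd1, -1.10 for Chd9 and -0.999 for Chd2, and 0.04 to 0.18 for the other 4 members.

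**Figure D1:**
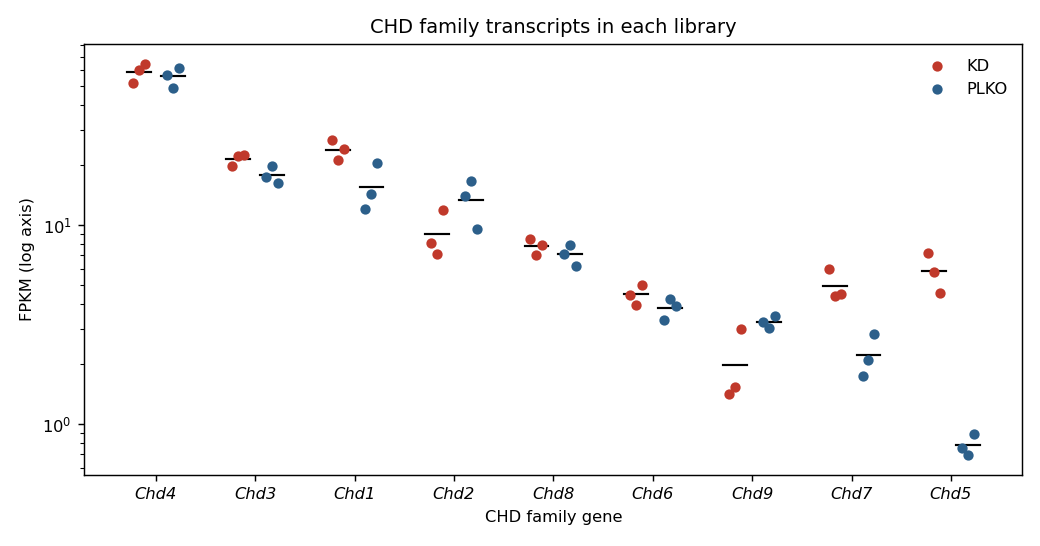
FPKM on a log axis for the 9 CHD genes, ordered by their mean in PLKO cells, with 1 point per library (KD left, PLKO right) and the mean of 3 libraries as a black line. Chd4 sits between 48.9 and 64.6 FPKM in all 6 libraries, while Chd5 sits between 4.54 and 7.17 FPKM in KD and between 0.693 and 0.889 FPKM in PLKO.

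Chd5 was the member that stood farthest apart. It lies on the plus strand at chr4:152338651-152390194 (GRCm38, ENSMUSG00000005045.16), spans 51.5 kb and has 42 exons in its longest coding transcript. It had 7.17, 5.78 and 4.54 FPKM in KD 1, 2 and 3, against 0.756, 0.693 and 0.889 FPKM in PLKO 1, 2 and 3. The lowest KD library was thus well above the highest PLKO library, and within the KD group the level was highest in KD 1 and lowest in KD 3. These levels rest on 1060, 875 and 762 reads in KD and on 129, 109 and 133 reads in PLKO, so the PLKO level was low but counted well above 0.

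Chd5 averaged 5.83 ± 1.31 FPKM in KD and 0.779 ± 0.1003 FPKM in PLKO (SD, n = 3 each), a difference of 2.89 on the log2 scale (SE 0.31), which is a fold of 7.39. By this difference it was number 18 from the top among the tested genes. In mean PLKO level it lay at percentile 7.91 of the listed genes, the lowest of the 9 members. The deposited values hold a small prior, a mean of 2.0 reads per library, which understates the fold slightly at these read numbers. On the log2(FPKM + 1) scale the difference was 1.92, and in the other alternatives run it lay between 2.72 and 3.15.

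The 250 bases before the annotated start of Chd5 and of its paralog Chd4 are shown because Chd5 is the member that differed most and Chd4 the NuRD ATPase that differed least. Both come from RefSeq (GRCm38.p6), on the plus strand, with motif matches in capitals. The windows are chr4:152338401-152338650 for Chd5 and chr6:125095731-125095980 for Chd4.
Chd5: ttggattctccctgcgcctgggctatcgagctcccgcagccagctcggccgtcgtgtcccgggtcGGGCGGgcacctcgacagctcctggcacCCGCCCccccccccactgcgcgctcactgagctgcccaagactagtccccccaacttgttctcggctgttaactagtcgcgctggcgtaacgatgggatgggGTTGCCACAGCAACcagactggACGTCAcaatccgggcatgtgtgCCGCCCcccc
Chd4: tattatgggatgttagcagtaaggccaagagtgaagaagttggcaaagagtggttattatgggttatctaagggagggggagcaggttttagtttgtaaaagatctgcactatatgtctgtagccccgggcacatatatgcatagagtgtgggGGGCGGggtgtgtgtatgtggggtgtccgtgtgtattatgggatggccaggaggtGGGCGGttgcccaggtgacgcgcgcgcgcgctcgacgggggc
Motifs were searched on both strands, and they were chosen after the Chd5 window had been seen. The Chd5 window held GGGCGG (the GC box) or its reverse 3 times, and the Chd4 window 2 times, where 32.7% of 32841 RefSeq promoter windows of the same length hold at least 1. The Chd5 window held 1 reverse match to TGACGT (the core of the cyclic AMP response element), found in 6.47% of windows. It also held GTTGCCACAGCAAC, which is GTTGCC, 3 bases of any kind and GCAAC, a form of the X-box known to be bound by RFX factors, starting 55 bases before the start. That pattern was found in 39 windows, 0.119% of all. Neither window held CACGTG (the E-box that MYC and MAX bind, in 6.02% of windows) or TGACTCA (the AP-1 site, in 4.46%). The Chd5 window had a GC content of 67.2% and an observed-to-expected CpG ratio of 0.765, against 54.0% and 0.842 for Chd4 and medians of 52.4% and 0.374 over all windows. RefSeq gives Chd4 another start, at position 125096163. The window before that start had a GC content of 67.6%, a CpG ratio of 0.990 and 3 GC boxes. Its GC content and number of GC boxes were close to those of the Chd5 window, but its CpG ratio was higher. A match is a description of letters, and binding was not measured.

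The other NuRD ATPases are the natural comparison for Chd5. Chd4, the main ATPase of NuRD in most cells (chr6:125095981-125130591, plus strand), had 51.8, 60.0 and 64.6 FPKM in KD and 56.8, 48.9 and 61.2 FPKM in PLKO. The groups overlapped, and the difference was 0.08 (SE 0.20). Chd3, its close relative in NuRD (chr11:69343273-69369406, minus strand), had 19.6, 22.3 and 22.4 FPKM in KD and 17.3, 19.6 and 16.2 FPKM in PLKO. The lowest KD library stood just above the highest PLKO library, and the difference was 0.28 (SE 0.19).

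Per unit of transcript length, Chd5 made up 9.11%, 6.56% and 4.96% of the summed FPKM of Chd3, Chd4 and Chd5 in KD 1, 2 and 3, against 1.01%, 1.00% and 1.14% in PLKO 1, 2 and 3. Every KD library lay above every PLKO library, and the KD libraries spread more widely. Chd4 stayed the most abundant of the 3 in every library. Its level was 7.23, 10.4 and 14.2 times that of Chd5 in KD 1, 2 and 3 and 75.2, 70.6 and 68.8 times in PLKO 1, 2 and 3. Chd3 made up 24.9% ± 0.404 of the sum in KD and 24.1% ± 3.94 in PLKO (SD, n = 3 each). The summed level of the 3 genes was 86.0 ± 6.67 FPKM in KD and 74.1 ± 4.60 FPKM in PLKO. These are shares of transcripts, and protein was not measured.

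**Figure D2:**
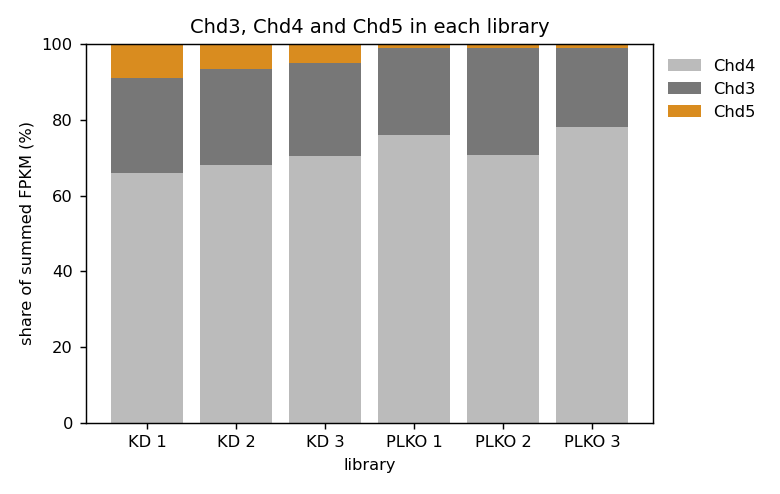
Stacked bars give the share of the summed FPKM of Chd3, Chd4 and Chd5 held by each gene, in percent, for the 3 KD libraries (left) and the 3 PLKO libraries (right). The Chd5 share is 4.96% to 9.11% in KD and 1.00% to 1.14% in PLKO, while Chd4 holds most of the sum in all 6.

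Sequence shared between genes can move reads from 1 gene to another, so windows of 50 bases were compared among all GENCODE M21 transcripts on both strands. None of the 9672 Chd5 windows occurred in another CHD gene. The 54 that occurred elsewhere (0.558%) lay in Gm13645, a noncoding transcript that overlaps Chd5 on the opposite strand and is not among the listed genes. Whether the authors' counting used strand is not stated in any source at hand. No window of any member occurred in another member. For Chd2 18.0% of windows, for Chd8 4.72% and for Chd9 2.41% occurred in some other gene, and for Chd1, Chd3, Chd4, Chd6 and Chd7 the share was between 0 and 0.583%.

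Markers of the cell types in which Chd5 is best known were nearly missing from the table. Of 14 neuron markers Elavl3 alone was listed, at 0.0450 to 0.340 FPKM in KD and 0.0175 to 0.338 FPKM in PLKO. None of 8 male germ cell markers was listed. Of 8 markers of another cell type, leukocytes, Cd68 alone was listed, at 44.4 to 95.0 FPKM in KD and 9.19 to 42.1 FPKM in PLKO. For Cd68 every KD library lay above every PLKO library, where 13.4% of all tested genes did. Its difference was 1.76 (SE 0.50), and it was not called (limma adjusted p = 0.075). Ptprc and Csf1r were not among the listed genes. The part of these cell type markers in the Chd5 values was not tested.

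Chd7, an enhancer-bound remodeller whose loss causes CHARGE syndrome in humans, lies on the same chromosome as Chd5 (chr4:8690406-8867659, plus strand). It had 6.01, 4.35 and 4.46 FPKM in KD and 1.74, 2.08 and 2.81 FPKM in PLKO, on 949 to 1279 reads in KD and 432 to 612 reads in PLKO. The groups did not overlap. The mean was 4.94 ± 0.927 FPKM in KD and 2.21 ± 0.549 FPKM in PLKO (SD, n = 3 each), a difference of 1.17 (SE 0.29). Libraries with equal numbers differed by 1.79, 1.06 and 0.665 on the log2 scale for numbers 1, 2 and 3, so the gap was smallest between KD 3 and PLKO 3.

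Chd8 and Chd6, of the same subfamily, differed little between the groups. Chd8, a remodeller known to restrain beta-catenin signalling (chr14:52198151-52257780, minus strand), had 8.44, 7.06 and 7.93 FPKM in KD and 7.10, 7.94 and 6.22 FPKM in PLKO, a difference of 0.14 (SE 0.21). Chd6 (chr2:160946978-161109075, minus strand) had 4.45, 3.96 and 4.99 FPKM in KD and 3.33, 4.21 and 3.88 FPKM in PLKO, a difference of 0.23 (SE 0.24). For both genes the groups overlapped.

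Chd9, the least abundant member in KD cells (chr8:90828352-91054516, plus strand), had 1.41, 1.52 and 3.00 FPKM in KD and 3.23, 3.03 and 3.48 FPKM in PLKO. KD 1 and KD 2 were far below the PLKO libraries, whereas KD 3 was only just below the lowest of them. The reads were 502, 557 and 1215 in KD and 1354, 1172 and 1275 in PLKO. The difference was -0.80 (SE 0.35), and -1.15 without KD 3. With a coefficient of variation of 44.8% in KD, Chd9 spread more among the KD libraries than any other member did, against 6.95% in PLKO.

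Chd1 and Chd2 are close paralogs that went opposite ways on average. Chd1 binds trimethylated lysine 4 of histone H3, and human CHD1 has been found with subunits of SF3a, the partner of SF3b in the U2 particle. Chd1 (chr17:15704967-15772610, plus strand) had 26.5, 21.04 and 23.9 FPKM in KD and 11.9, 14.3 and 20.4 FPKM in PLKO. The groups did not overlap, but KD 2 and PLKO 3 lay close together, and the difference was 0.65 (SE 0.24).

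Chd2, which deposits histone variant H3.3 in transcribed genes (chr7:73426638-73541830, minus strand), had 8.06, 7.11 and 11.9 FPKM in KD and 13.9, 16.5 and 9.51 FPKM in PLKO. The groups overlapped because PLKO 3 lay below KD 3. The difference was -0.56 (SE 0.29), and -0.999 without both libraries numbered 3. Chd2 shares 2579 windows of 50 bases with transcripts of 1810026B05Rik, a long noncoding RNA that overlaps it on the same strand and is known in mice, under the name Chaserr, to hold Chd2 down. That gene was not among the listed genes, and how reads in the shared exons were assigned is not stated. The log2 ratio of Chd1 to Chd2 was 1.72, 1.57 and 1.01 in KD 1, 2 and 3 and -0.22, -0.21 and 1.10 in PLKO 1, 2 and 3. In this ratio PLKO 3 stood with the KD libraries.

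**Figure D3:**
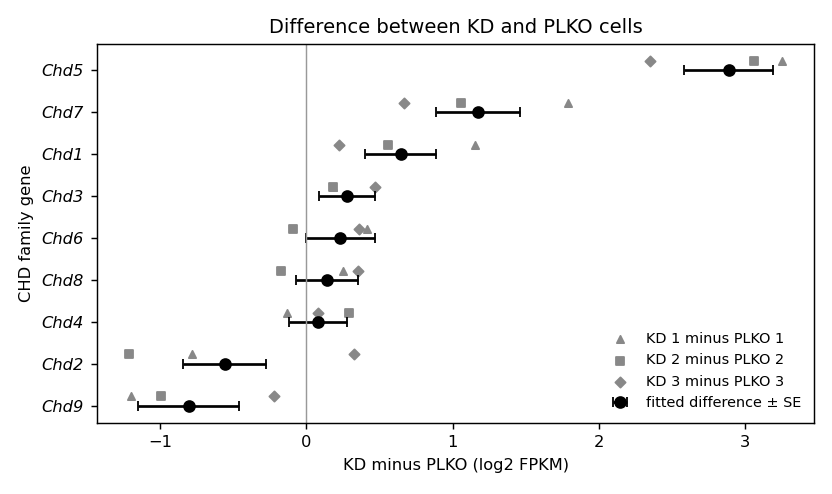
Points with bars give the fitted KD minus PLKO difference in log2 FPKM ± SE for each CHD gene, and grey marks give the difference between libraries of equal number. For Chd5, Chd7 and Chd1 the mark of KD 3 minus PLKO 3 is the smallest of the 3 (2.35, 0.665 and 0.226), and for Chd2 it lies on the other side of 0 from the other 2.

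The order of levels differed between the groups. In KD cells the order by mean FPKM was Chd4, Chd1, Chd3, Chd2, Chd8, Chd5, Chd7, Chd6 and Chd9, and in PLKO cells it was Chd4, Chd3, Chd1, Chd2, Chd8, Chd6, Chd9, Chd7 and Chd5. In KD cells Chd4 lay apart from Chd1, Chd3 apart from Chd2 and Chd6 apart from Chd9, while the libraries of all other neighbours in the order overlapped. In PLKO cells the ranges of Chd3, Chd1 and Chd2 overlapped in turn, as did those of Chd6 and Chd9, and every other pair of neighbours lay apart. The summed level of all 9 genes was 138 ± 8.39 FPKM in KD and 119 ± 4.93 FPKM in PLKO (SD, n = 3 each).

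The partners of the CHD ATPases in NuRD were set beside them. Like the other lists, theirs was chosen with earlier results of these data known. All of its 12 subunits were tested. None was called (0 of 12, against 2.92% of all tested genes), and limma gave 3 an unadjusted p under 0.05, while voom on the recovered reads also called 0. Over all tested genes 27.6% had an unadjusted p under 0.05. The list had 5 members above 0 and 7 below, with differences from -0.73 to 0.57 and a median of -0.15, against -0.04 over all tested genes. That median was 0.04 without both libraries numbered 3 and 0.01 with array weights. Of the 12 subunits 2 had every KD library above every PLKO library, and 4, Mta3 among them, had every KD library below. Over all tested genes 13.4% and 18.8% did. Nothing is read from these counts. Mta3, a scaffold subunit, had 6.25, 6.56 and 8.42 FPKM in KD and 11.3, 10.9 and 12.7 FPKM in PLKO. Its difference was -0.73 (SE 0.21, limma adjusted p = 0.079), and with the replicate block it was the 1 subunit of 12 called (adjusted p = 0.035), where 19.3% of all tested genes were called. Of its paralogs, Mta2 averaged 59.3 ± 9.81 FPKM in KD and 45.3 ± 0.502 FPKM in PLKO, and Mta1 averaged 52.7 ± 14.5 FPKM in KD and 71.5 ± 5.37 FPKM in PLKO (SD, n = 3 each). Their differences were 0.37 (limma adjusted p = 0.25) and -0.47 (limma adjusted p = 0.22), and that of Mta1 was -0.31 without KD 1. Rbbp4, a histone-binding subunit, had a difference of 0.57 and Mbd2, which binds methylated DNA, of -0.54 (limma adjusted p = 0.16 for both). The deacetylase Hdac1 averaged 34.7 ± 4.87 FPKM in KD and 35.8 ± 5.59 FPKM in PLKO (SD, n = 3 each).

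Among 22 ATPases of the same helicase superfamily outside the CHD family, 21 were tested and none was called (0 by limma, with 4 at an unadjusted p under 0.05, and 0 by voom), where 2.92% of all tested genes were called and 27.6% had an unadjusted p under 0.05. Their median difference was -0.17 (0.08 without PLKO 1), with 10 members above 0 and 11 below. With the replicate block 2 were called higher and 2 lower, a share close to the 19.3% of all tested genes. Ercc6l, a translocase of mitotic chromosomes, had 24.4, 17.5 and 9.02 FPKM in KD and 7.01, 4.31 and 5.30 FPKM in PLKO. Its difference was 1.53 (SE 0.36), and limma put its adjusted p at 0.058 without and 0.0043 with the block. Rad54l2, an androgen receptor cofactor also called ARIP4, had 11.9, 9.42 and 7.32 FPKM in KD and 4.29, 5.33 and 4.92 FPKM in PLKO. Its difference was 0.96 (SE 0.25), and limma put its adjusted p at 0.062 without and 0.019 with the block. Both were highest in KD 1 and lowest among the KD libraries in KD 3, the order that Chd5 also had. Ercc6l2, which acts in DNA repair, and Ttf2, a transcription termination factor, had differences of -0.81 and -0.74 (limma adjusted p = 0.11 for Ercc6l2 and 0.084 for Ttf2), and with the block their adjusted p was 0.031 and 0.043. Shprh and Ep400 had differences of 0.50 and -0.45 (limma adjusted p = 0.21 and 0.24).

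**Figure D4:**
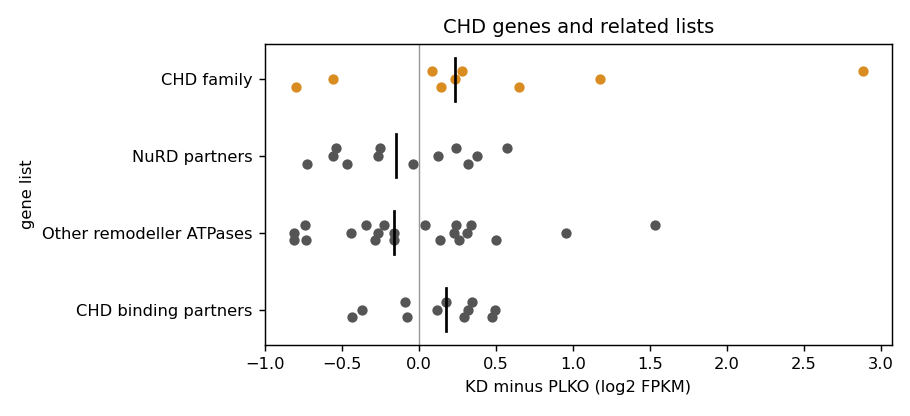
Each point is the KD minus PLKO difference of 1 gene in log2 FPKM, for the CHD family and 3 lists of related genes, and the black lines are medians. Chd5 at 2.89 lies beyond all points of the other lists, whose highest is Ercc6l at 1.53.

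Of 11 proteins known to bind CHD members outside NuRD none was called by limma or voom, and limma gave none an unadjusted p under 0.05, where 2.92% of all tested genes were called and 27.6% had such a p. Their median difference was 0.17, with 7 above 0 and 4 below. The SF3a genes, whose products have been found with human CHD1, had differences of 0.49 for Sf3a1, -0.43 for Sf3a2 and 0.48 for Sf3a3, none past the threshold (limma adjusted p 0.25 and 0.35 and 0.23). The Sf3a2 value rested on PLKO 2, at 65.0 FPKM against 34.5 and 33.7 FPKM in PLKO 1 and 3, and was -0.12 without it. Without KD 1 the Sf3a1 and Sf3a3 differences were 0.33 and 0.29. Ctnnb1, which encodes beta-catenin, a partner of Chd8, had a difference of 0.11 (limma adjusted p = 0.76), which leaving out 1 library moved between 0.03 and 0.25. Adnp, which forms a complex with Chd4 and HP1 proteins, averaged 1.99 ± 0.714 FPKM in KD and 2.09 ± 0.519 FPKM in PLKO (SD, n = 3 each).

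The 4 genes placed downstream of Chd5 in mouse tumour suppression did not share a direction, with 3 differences above 0 and 1 below. Limma gave all 4 an unadjusted p under 0.05, where 27.6% of all tested genes had one. The list was chosen with earlier results of these data known, so nothing is read from this count. Cdkn2a, which encodes p16Ink4a and p19Arf, had 225, 325 and 336 FPKM in KD and 416, 393 and 445 FPKM in PLKO. Its KD libraries all lay below its PLKO libraries, the opposite side from Chd5, but the difference of -0.52 (SE 0.22) had a limma adjusted p of 0.16 without and 0.12 with the block, above the threshold. Without KD 1 the difference was -0.34. Trp53 had a difference of 0.56 (SE 0.24, limma adjusted p = 0.18). Mdm2, a p53 target that degrades p53, had 35.7, 29.0 and 28.2 FPKM in KD and 15.2, 15.3 and 16.5 FPKM in PLKO. It rose by 0.98 (SE 0.19, limma adjusted p = 0.043) and was the 1 gene of these 4 called, where 2.92% of all tested genes were called and 1.12% as higher. Without KD 1, KD 2, PLKO 1 or PLKO 2 its limma adjusted p was 0.17, 0.19, 0.14 and 0.13. Cdkn1a, the p53 target that encodes p21, had a difference of 1.01 (SE 0.43), and limma put its adjusted p at 0.17 without and 0.012 with the block, where 19.3% of all tested genes were called. Without PLKO 3, its lowest library, the difference was 0.54.

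The listed genes nearest to Chd5 showed no difference of its size. Kcnab2, a potassium channel subunit gene, lies on the minus strand, so that its end faces the end of Chd5 at a distance of 0.548 kb. It had 5.18, 4.87 and 5.64 FPKM in KD and 6.60, 6.09 and 6.62 FPKM in PLKO. Its difference was -0.30 (SE 0.21, limma adjusted p = 0.36). Rpl22, a ribosomal protein gene that ends 4.58 kb before Chd5, had a difference of 0.35 (SE 0.28, limma adjusted p = 0.44), which was 0.10 without PLKO 2 and 0.66 without PLKO 3. Icmt, a methyltransferase gene 31.5 kb away, had 37.6, 36.5 and 21.5 FPKM in KD and 19.8, 21.6 and 18.1 FPKM in PLKO, a difference of 0.64 (SE 0.25, limma adjusted p = 0.14). Rnf207, 19.7 kb away, averaged 0.821 ± 0.205 FPKM in KD and 0.627 ± 0.319 FPKM in PLKO (SD, n = 3 each) and was too low to be tested. The next listed genes on the far side, BC039966 and A430005L14Rik, lie 1560 and 1570 kb away. None of the 5 tested neighbours was called, and limma gave 1 (Icmt) an unadjusted p under 0.05, while voom called 0. Over all tested genes 2.92% were called and 27.6% had an unadjusted p under 0.05.

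**Figure D5:**
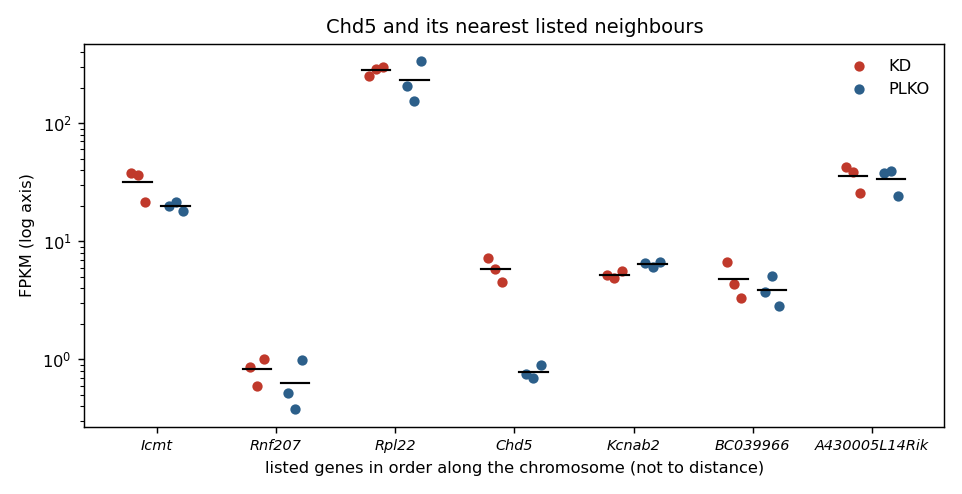
FPKM on a log axis for Chd5 and the 3 nearest listed genes on each side, in their order along the chromosome and not to distance, with 1 point per library (KD left, PLKO right) and the mean as a black line. Kcnab2 and Rpl22, the closest neighbours, differ between KD and PLKO by less than 0.4 on the log2 scale, against 2.89 for Chd5.

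Some genes followed Chd5 closely across the 6 libraries. Likeness was measured as the root mean square difference between log2 values centred on each gene's mean, over 6 libraries and 11237 other listed genes, predicted genes left out. The median gene stood at 1.51. The 5 closest were Nnat (0.308), Rnf223 (0.330), Ppp1r32 (0.356), Slc7a3 (0.367) and Crct1 (0.378). Nnat, which encodes neuronatin, a small membrane protein known from developing brain, had 7.03, 4.79 and 2.46 FPKM in KD and 0.579, 0.622 and 0.929 FPKM in PLKO. Nnat overlaps Blcap on the opposite strand, so reads of the pair cannot be told apart if strand was not used. Rnf223, a ring finger gene, had 4.25, 2.91 and 1.75 FPKM in KD and 0.535, 0.535 and 0.541 FPKM in PLKO. Slc7a3, a cationic amino acid transporter, had 1.52, 1.38 and 0.724 FPKM in KD and 0.222, 0.190 and 0.316 FPKM in PLKO. Like Chd5, these 3 genes and Ppp1r32 were lowest in KD 3 among the KD libraries. Crct1 was not, with 1.62, 2.78 and 1.88 FPKM in KD 1, 2 and 3 and 0.292, 0.228 and 0.232 FPKM in PLKO 1, 2 and 3. Its levels rest on 18, 33 and 24 reads in KD and on 2, 1 and 1 reads in PLKO. Ppp1r32 had 8, 3 and 4 reads in PLKO 1, 2 and 3. The prior, a mean of 2.0 reads, sets much of such low values. Slc7a3 was too low to be tested. The measure picks genes by the same contrast, so no test was made.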

How the data were processed

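The authors deposited 1 table of log2 FPKM per gene and library. The submitters' processing notes name GRCm38 and FastQC 0.11.7. Which aligner, counter, strand setting and gene filter were used is not given in the sources used here. These deposited values carry a prior (mean 2.0 reads per library). With GENCODE M21 exon lengths 10974 of 11866 genes (92.5%), all 9 members among them, gave whole reads within 0.01 reads or, for high counts, 2e-07 of the count. For the other 892 the shortest length that gave whole reads was used, so these are no check and their reads may be too few. Recovered reads on listed genes were 0.938 (PLKO 1) to 1.04 (PLKO 2) times the library size behind the values. In PLKO 2, and also in PLKO 3 (1.02), KD 2 (1.01) and KD 3 (1.0007), that size was thus below the reads counted. It was therefore not a plain read total. How it was set is not given.

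KD and PLKO (3 libraries each) were compared with limma 3.58.1 (R 4.3.3) fitted to the log2 values with trend in variance. The 10770 genes whose FPKM averaged 1 or more were tested. Benjamini-Hochberg adjusted p under 0.05 was called. The fit was tested on simulated data. Members and lists were chosen with earlier results of these data known. The text names all 9 members, the genes of the lists, up to 6 other ATPases with the lowest p, and the 5 genes most like Chd5.

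Deviations from group means correlated at 0.18, 0.29 and 0.50 between libraries numbered 1, 2 and 3, so numbers were taken to pair libraries. This comes from the data, not from a label. KD 1 also correlated with PLKO 2 at 0.30, and KD 2 with PLKO 1 at 0.27. The correlations thus tie KD 3 to PLKO 3 but do not tell how the libraries numbered 1 and 2 pair. The block and the calls made with it rest on the numbers for these. The 16 alternatives covered scale, filter, scaling, weights, block, left-out libraries and voom. edgeR was planned but not run, since the file holds log2 values; voom replaced it after the data were seen.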

Additional observations from a re-analysis of the deposited data

How the results depend on the processing

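The differences of Chd1, Chd2, Chd3, Chd5, Chd6, Chd7, Chd8 and Chd9 kept their sign in each of the 15 or 16 alternatives in which the gene was fitted, and Chd4, at 0.08, turned to -0.01 without PLKO 2. The number of calls did not hold. It was 314 genes in all and 2080 with the replicate block, 3599 with array weights, 3009 without KD 3 and PLKO 3, 308 with voom on the recovered reads, and 2239 with voom and the block. Leaving out 1 library gave 0 to 1744 calls, with 0 without KD 1, KD 2, PLKO 1 or PLKO 2, so the call of Chd5 rests on each of these. Array weights were estimated gene by gene, because the default estimate did not converge.

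Of all 10770 tested genes 314 were called, 2080 with the block, 3599 with array weights and 3009 without both libraries numbered 3. It was 308 with voom, 2239 with voom and the block, and 0 to 1744 without 1 library. The list counts below move with these totals, and nothing is read from them. Of the 9 CHD genes 1 was called, 2 with the block, 5 with array weights, 5 without both libraries numbered 3, 2 with voom, 3 with voom and the block, 0 to 3 without 1 library, and 0 at a mean FPKM of at least 5, which leaves Chd5 out. NuRD partners had 0 calls, 1 with the block, 4 with array weights, 2 without both libraries numbered 3, 1 with voom and the block, and 0 to 2 without 1 library. For other remodeller ATPases these were 0, 4, 6, 6, 5 and 0 to 4. CHD binding partners had 0 calls, 2 with array weights and 1 without both libraries numbered 3. The CHD5 pathway had 1 call, 2 with the block, 3 with array weights, 3 without both libraries numbered 3, 2 with voom and the block, and 0 to 2 without 1 library. Neighbours of Chd5 had 0 calls and 1 with array weights, without both libraries numbered 3 and with voom and the block, and 0 to 1 without 1 library. The causes were not tested. Among the CHD genes, the named list genes and the 5 genes most like Chd5, the block changed the calls of Chd7, Mta3, Ercc6l, Rad54l2, Ercc6l2, Ttf2 and Cdkn1a and no other. Among the markers named it changed those of Cd68, Col3a1 and Pdgfrb. Their limma adjusted p was 0.075, 0.051 and 0.064 without and 0.0018, 0.0045 and 0.012 with the block.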
